A study of Caenorhabditis elegans with 24 samples.

Results

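The comparison of small RNA bound to the Argonaute protein ALG-1 with total small RNA was made within alg-1(ma443, G199S) worms. It used the 4 libraries whose labels name G199S among 24 libraries of 6 genotypes: 2 from ALG-1 immunoprecipitates (IP) and 2 from the lysate (total). All miRNAs of the count table entered, 437 mature names of which 315 had enough reads to be tested. ALG-1 is 1 of the Caenorhabditis elegans Argonautes that load miRNAs. A miRNA hairpin is cut to a short duplex, an Argonaute keeps one strand, the guide, and discards the other, the passenger. RNA that co-precipitates with an Argonaute is therefore read as the loaded pool, and total RNA as all miRNAs present whatever holds them.

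The study modelled human AGO1 changes found in neurodevelopmental disorders in the worm gene. Whole animals were raised on E. coli HB101, synchronised by hatching without food, and collected 45 h after feeding began at 20 °C. Besides this allele, the comparisons used WT (strain N2), alg-1(ma447,F180del), named F180del, the null alg-1(tm492, 0) and, for the share of passenger strands alone, alg-1(zen25, V254I) and alg-1(zen18,H751L), each with 2 IP and 2 total libraries, and all 24 libraries served to estimate the spread. Each mutant is 1 allele, and the labels do not say whether the 2 libraries of a group came from separate cultures. P-values thus rest on library-to-library spread alone, part or all of which may be technical. Null animals should lack the protein that the IP targets, so their IP gives the background measured in the same way. In whole animals, fewer cells of a type and less RNA per cell cannot be told apart.

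The G199S libraries held 11437670 and 6976045 miRNA reads in IP and 8161528 and 9826134 in total RNA. Between 303 and 351 miRNAs had reads in each. A count of 0 allows up to 3 reads, or 0.262 to 0.430 RPM (reads scaled to 1000000 miRNA reads per library), which covers counting error only. Over the 183 miRNAs with a mean of at least 10 RPM, the median difference between library 1 and library 2 was 0.377 on the log2 scale in IP and 0.384 in total RNA, against 0.913 and 0.937 between IP and total libraries of the same number. The alg-1 transcript and the yield of the precipitation were not measured, so every level is relative within its library. All 9 miRNAs of a list labelled tissue-restricted had reads in all 4 libraries, the lowest at 9.16 RPM (miR-791-3p). Examples are miR-1-3p of muscle, miR-228-5p of glia and miR-57-5p of posterior cells.

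In G199S, the IP held 9 miRNAs at a higher level than total RNA did and 16 at a lower level, 25 of 315 tested (7.94%; 2.86% higher and 5.08% lower; edgeR quasi-likelihood test, Benjamini-Hochberg adjusted p under 0.05). Higher were the quiescence miRNA miR-235-3p, the posterior-fate miRNA miR-57-5p, miR-90-3p, the neuronal miR-791-3p, miR-240-3p, the let-7 family member miR-795-5p, and 3 passenger strands, miR-48-3p, miR-42-5p and miR-44-5p. Lower were 3 members of the embryonic miR-35 family, the guides miR-229-3p and miR-789-3p, the passengers miR-61-5p, miR-84-3p, miR-231-5p and miR-786-5p, and 7 miRNAs with numbers from 1000 up, 5 of which had 0 or 1 read in IP. Guide and passenger were named from total libraries of the other genotypes. The median log2 change over all 315 was -0.27. Scaling by library totals in place of TMM factors lowered all log2 changes by 0.25 in the median and gave 7 higher and 23 lower, so changes are best read relative to that median. Of the 122 passenger strands tested, 3 were higher and 4 lower, and of the 166 guide strands 6 were higher and 10 lower.

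**Figure D1:**
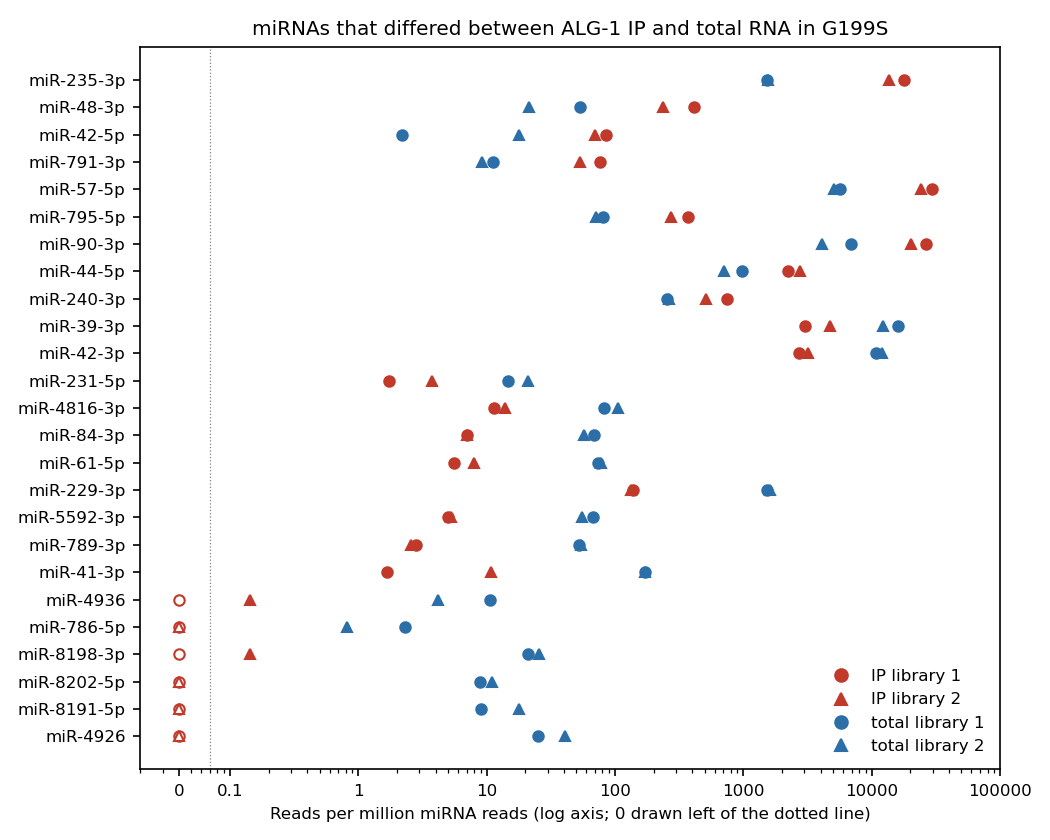
Levels of the 25 miRNAs that differed between ALG-1 IP (red) and total RNA (blue) in G199S, in RPM on a log axis; circles are library 1, triangles library 2, open symbols 0 reads. In each of the 25 both IP libraries lie on one side of both total libraries. The calls were made on these same values, so this is no further support, and the share over all 315 is not given here. miR-235-3p is at the top (log2 change 3.59) and miR-4926, unread in IP, at the bottom.

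miR-235-3p, which is homologous to vertebrate miR-92 and holds blast cells quiescent in starved larvae, had the largest log2 rise of the 9. It stood at 17808 and 13673 RPM in IP and 1519.7 and 1549 RPM in total RNA. Both IP libraries lay far above both total libraries, a mean 10.3-fold higher, and the log2 change was 3.59 ± 0.46 (SE, adjusted p = 4.94e-05). miR-90-3p stood at 26657 and 20098 RPM in IP and 6966 and 4091 RPM in total RNA. Its IP libraries were likewise above its total libraries, with a log2 change of 2.31 ± 0.40 (SE, adjusted p = 0.00105). These are 2 of the 7 members of a list of stress and lifespan miRNAs, of which the other 5 did not pass, beside 2.86% of all tested that were higher: miR-71-5p, which extends lifespan, gave a log2 value of -0.26, miR-34-5p 0.79, miR-80-3p 1.39, miR-246-3p -0.71 and miR-85-3p -0.86. The list's median was 0.79.

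Of the 9 tissue-restricted miRNAs, 2 were higher and none was lower, beside 2.86% and 5.08% of all tested. miR-57-5p, which acts with a posterior Hox gene in cell fate, stood at 29693 and 24456 RPM in IP and 5686 and 5102 RPM in total RNA. Its IP and total libraries did not overlap and its log2 change was 2.56 ± 0.74 (SE, adjusted p = 0.0383). miR-791-3p, found in the neurons that sense carbon dioxide, stood at 76.4 and 53.9 RPM in IP and 11.3 and 9.16 RPM in total RNA. It was scarce in every library, more so in both total libraries, and its log2 change was 2.90 ± 0.74 (SE, adjusted p = 0.0171). The other 7 gave log2 changes between -1.18 (lsy-6-3p, of a taste neuron) and 1.03 (miR-228-5p), with miR-1-3p at -0.74, the neuronal miR-124-3p at -0.26 and the gut miRNA miR-60-3p at -0.35. The list's median, -0.26, was close to that of all miRNAs.

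The let-7 family, whose members time larval transitions, had 1 of 7 members past the threshold, beside 7.94% of all tested. miR-795-5p stood at 370.1 and 272 RPM in IP and 80.3 and 71.2 RPM in total RNA. It was higher in both IP libraries, by 2.32 ± 0.62 (SE, adjusted p = 0.0245) on the log2 scale. The 6 others lay between -0.13 (miR-794-5p) and 0.81 (miR-241-5p), with let-7-5p at 0.42, miR-48-5p at 0.71 and miR-84-5p at 0.32. The family made up 8.25% and 7.75% of miRNA reads in IP and 6.27% and 5.93% in total RNA. Its median log2 change was 0.42 in G199S, beside 1.01 in WT and 2.80 in null. miR-240-3p, from a hairpin next to mir-786 on chromosome X (7882622 to 7882718, plus strand, WBcel235) in a cluster that acts in the defecation rhythm, stood at 746 and 509 RPM in IP and 255 and 262 RPM in total RNA. It had the smallest rise of the 9, 1.51 ± 0.43 (SE, adjusted p = 0.0383).

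The miR-35 family works in embryos, and all 8 of its members had a log2 change below 0 in G199S. The median of all 315 tested was itself below 0, at -0.27, and miR-37-3p (-0.09) lay above that median. Of the 8 members 3 passed (all lower, beside 5.08% of all tested): miR-42-3p, miR-39-3p and miR-41-3p. None of these 3 passed when any 1 of the 4 G199S libraries was left out, and miR-41-3p then ranged from -3.81 (without IP library 1) to -6.45 (without IP library 2). miR-42-3p stood at 2711 and 3203 RPM in IP and 10777 and 12157 RPM in total RNA. Both IP libraries were below both total libraries, and the log2 change was -1.70 ± 0.42 (SE, adjusted p = 0.0133). miR-39-3p stood at 3044 and 4775 RPM in IP and 15965 and 12250.4 RPM in total RNA, a log2 change of -1.59 ± 0.46 (SE, adjusted p = 0.0383). It too did not overlap between fractions. miR-41-3p was scarce, at 1.66 and 10.9 RPM in IP and 173 and 172 RPM in total RNA. Its IP libraries differed from each other more than its total libraries did, and the log2 change was -4.50 ± 1.34 (SE, adjusted p = 0.044). Its partner miR-41-5p, the passenger by the other genotypes, had more reads in all 4 G199S libraries (1801 and 1825 against 1408 and 1686 in total RNA). Among the 5 that did not pass, the abundant miR-35-3p gave -0.27 and miR-37-3p -0.09, while miR-40-3p gave -0.87, miR-36-3p -1.63 and miR-38-3p -2.40. The family's summed share of reads was 5.67% and 6.27% in IP and 12.1% and 9.54% in total RNA, without overlap. The G199S libraries stood apart in this: in WT, null and F180del the family held 1.06% to 1.97% of reads in total RNA and 0.235% to 0.863% in IP. The part of this higher level in the change was not tested. Its median log2 change was -1.61 in G199S, -0.84 in WT and -1.81 in null. mir-35 to mir-41 lie in 1 cluster on chromosome II (11537608 to 11538404, plus strand, WBcel235) inside an intron of Y62F5A.9, which is read from the opposite strand. mir-42 lies apart from them, beside mir-43 and mir-44 (II, 11889811 to 11889905, plus strand). Members share most of the mature sequence, so reads may have been split between them and single members are uncertain.

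None of the members of the remaining lists passed. Median log2 changes were 0.71 over the 6 of the miR-51 family, 0.66 over the 5 tested of the miR-58 family, 0.23 over the 5 of the miR-63/64 family and 0.50 over the 4 of the miR-44 family. In that family miR-44-3p and miR-45-3p had nearly equal reads in every G199S library (104412 and 104577 in IP library 1), so 2 of its 4 members may be the same reads. They were -1.41 over the 4 of the miR-2 family, -1.35 over the 3 of the miR-238 family and 0.85 over the 2 of the lin-4 family. The 4 tested members of a list drawn up as mirtrons, miRNAs from spliced introns, were below 0, with a median of -1.72. The annotation places only mir-62 and mir-1020 of these in introns and the other 2, mir-1018 and mir-255, in no protein-coding gene, which goes against the list's name. miR-243-3p, which binds the Argonaute RDE-1, gave 1.36. Within the miR-51 family the values nearest to a call were 1.66 for miR-54-3p and 1.22 for miR-56-3p.

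**Figure D2:**
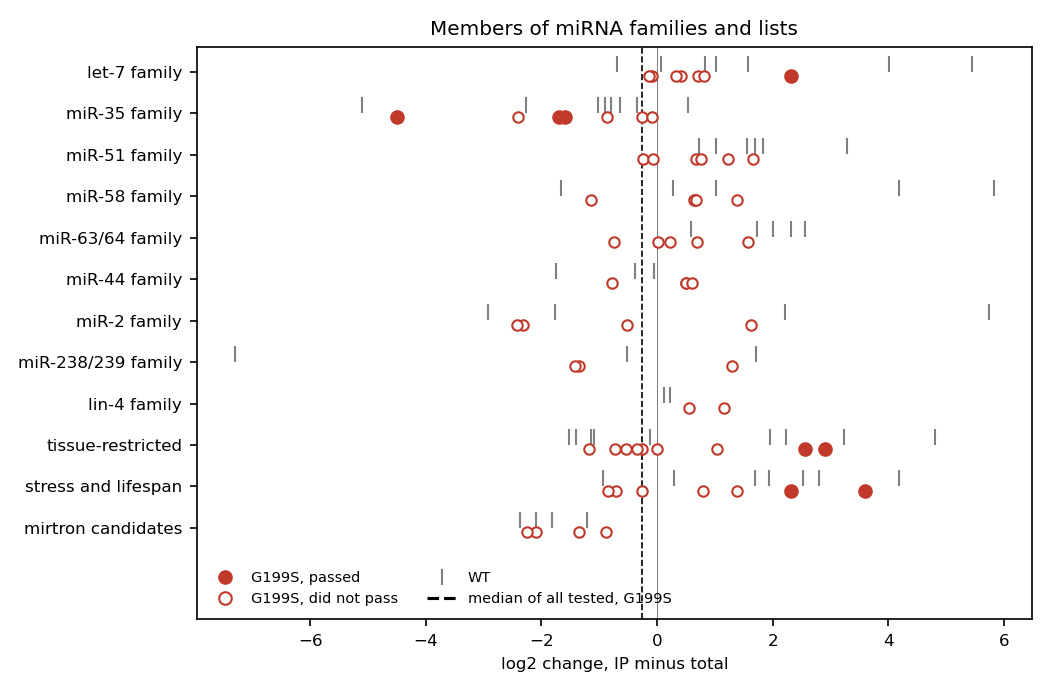
Log2 change from total RNA to ALG-1 IP for the tested members of each family or list in G199S (circles, filled where the adjusted p was under 0.05) and WT (grey ticks); the dashed line is the median of all 315 miRNAs in G199S, -0.27. All 8 miR-35 family members and the 4 of the list labelled mirtron candidates lie left of 0, with miR-37-3p (-0.09) right of the dashed line. The filled circles on the right are miR-795-5p, miR-57-5p, miR-791-3p, miR-90-3p and miR-235-3p.

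None of the most abundant miRNAs passed in the fit of all 24 libraries. miR-228-5p led the IP at 80037 and 98797 RPM in IP and 51655 and 52316 RPM in total RNA, a log2 change of 1.03 ± 0.63 (SE, adjusted p = 0.33). miR-58a-3p, a very abundant miRNA of the miR-58 family, led total RNA and stood at 24594 and 73628 RPM in IP and 97975 and 166419 RPM in total RNA. Its IP libraries were below its total libraries but differed widely from each other, and the change was -1.14 ± 0.67 (SE, adjusted p = 0.315). Others among the 5 most read in a fraction gave -0.26 (miR-71-5p), 0.63 (miR-82-3p), 1.39 (miR-80-3p), 0.71 (miR-48-5p) and -0.74 (miR-1-3p), none past the threshold. With only the G199S libraries in the fit, where 89 of 260 passed, miR-228-5p (1.07), miR-80-3p (1.45) and miR-48-5p (0.75) did. miR-58a-3p, miR-71-5p, miR-82-3p and miR-1-3p did not. The 10 most read miRNAs held 59.2% of reads in IP and 65.5% in total RNA.

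Of the 103 tested miRNAs with numbers from 1000 up, none was higher in IP and 7 were lower (6.80%, beside 5.08% of all tested and 4.25% of the other 212). miR-4926 had 0 reads in both IP libraries and 25.1 and 40.7 RPM in total RNA. This was at least 206-fold lower, with 3 reads over the IP group as the floor. Its adjusted p was 0.000494. miR-8191-5p was also unread in IP, and stood at 9.07 and 17.9 RPM in total RNA, at least 85.3-fold lower. miR-8198-3p had 1 read in IP and 424 in total RNA. miR-5592-3p stood at 4.98 and 5.3 RPM in IP and 66.9 and 55.3 RPM in total RNA, a log2 change of -3.32 ± 1.00 (SE, adjusted p = 0.044). miR-4816-3p stood at 11.5 and 13.9 RPM in IP and 81.6 and 106 RPM in total RNA, a log2 change of -2.64 ± 0.65 (SE, adjusted p = 0.0133). Unlike the preceding 3, both were read in every IP library, at levels below every total library. The hairpins of miR-4926, miR-8191-5p and miR-4816-3p lie in introns of ari-1.3, C09B9.85 and T09B4.2, on the strand of the host gene. Over all tested miRNAs whose hairpin lies in an intron on the host's strand, 1 of 84 was higher (1.19%) and 5 were lower (5.95%). In introns on the opposite strand 0 and 4 of 40 (10%) were, beside 2.86% and 5.08% of all tested. The median log2 changes were -0.45 on the host's strand and -0.84 on the opposite strand, beside -0.27 over all tested. These differences were not tested. The 4 called miRNAs outside the naming rule, named here after their values were seen, were miR-8202-5p (0 reads in IP, 181 in total), miR-4936 (1 and 128), miR-786-5p (0 and 27) and miR-231-5p (46 and 328).

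Among the earlier-numbered miRNAs that fell outside the miR-35 family, miR-229-3p had the most reads. It stood at 139 and 134 RPM in IP and 1539 and 1608 RPM in total RNA. Its IP libraries were alike and far below total RNA, and its log2 change was -3.28 ± 0.70 (SE, adjusted p = 0.00557). miR-789-3p stood at 2.8 and 2.58 RPM in IP and 52.7 and 54.9 RPM in total RNA, a log2 change of -4.07 ± 0.92 (SE, adjusted p = 0.00722). The passengers miR-61-5p, from a hairpin whose guide promotes Notch signalling in vulval precursors, and miR-84-3p, from a let-7 family hairpin, also fell. miR-61-5p stood at 5.6 and 8.03 RPM in IP and 74 and 78.3 RPM in total RNA, a change of -3.23 ± 0.63 (SE, adjusted p = 0.00251). Both IP libraries lay well below both total libraries. miR-84-3p stood at 6.99 and 7.02 RPM in IP and 68.7 and 57.3 RPM in total RNA, a change of -2.92 ± 0.66 (SE, adjusted p = 0.00722), again without overlap. The 3 passengers that rose came from hairpins of abundant guides. miR-48-3p stood at 413 and 238 RPM in IP and 53.8 and 21.3 RPM in total RNA, a change of 3.33 ± 0.67 (SE, adjusted p = 0.0032). Its libraries varied within both fractions, without overlap between them. miR-42-5p stood at 84.6 and 70.4 RPM in IP and 2.21 and 17.9 RPM in total RNA. Its total libraries differed from each other more than its IP libraries, yet both lay below, and its change was 3.19 ± 0.82 (SE, adjusted p = 0.0181). It was 2.26 without total library 1 and 5.39 without total library 2. miR-44-5p stood at 2242 and 2774 RPM in IP and 972 and 705 RPM in total RNA, a change of 1.83 ± 0.55 (SE, adjusted p = 0.044). This passenger was read far more than the other two. The hairpins of miR-42-5p and miR-44-5p are neighbours on chromosome II, mir-44 at 11890023 to 11890118 on the plus strand.

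The number of calls depended on single libraries. With 1 G199S library left out, 2 (IP library 1), 7 (IP library 2), 13 (total library 1) and 11 (total library 2) miRNAs passed, and miR-235-3p and miR-4926 passed each time, whereas 11 passed in none of the 4: miR-39-3p, miR-41-3p, miR-42-3p, miR-44-5p, miR-57-5p, miR-231-5p, miR-240-3p, miR-786-5p, miR-791-3p, miR-795-5p and miR-5592-3p. With the null libraries left out of the fit, an alternative added after the data were seen, 58 passed (23 higher, 35 lower), the 25 among them.

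In WT, 69 of the 315 miRNAs differed between IP and total RNA (21.9%; 29 higher, 9.21%, and 40 lower, 12.7%). The counts were 112 in null (35.6%; 41 higher, 13%, and 71 lower, 22.5%) and 28 in F180del (8.89%; 7 higher, 2.22%, and 21 lower, 6.67%). The interquartile range of log2 changes was 2.33 in G199S, 2.23 in F180del, 3.18 in WT and 4.91 in null. Of the 9 miRNAs higher in G199S IP, 8 were also called higher in WT (27.6% of the 29 there) and 8 in null (19.5% of 41), and in both the exception was miR-44-5p. Of the 16 lower, 14 were also called lower in WT (35% of 40), the exceptions being miR-39-3p and miR-786-5p, and 12 in null (16.9% of 71). In F180del, 5 of the 9 were also called higher (71.4% of 7) and 13 of the 16 lower (61.9% of 21). The null calls are the background of the precipitation, measured the same way. The null IP libraries held reads of only 153 and 232 miRNAs, against 274 and 292 in the null total libraries. The part of this sparse recovery in the null calls was not tested. Of the 25, only miR-4936 and miR-231-5p had a G199S change that differed from the null change (adjusted p under 0.05), and none had one that differed from WT, where the smallest adjusted p was 0.0728. Across the 175 miRNAs with a mean of at least 10 RPM, log2 changes in G199S correlated with those in F180del at Pearson r = 0.923 (Spearman 0.867), with WT at 0.747 (0.664) and with null at 0.642 (0.601). These are descriptions across miRNAs, which are not independent replicates and share their libraries and scaling.

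**Figure D3:**
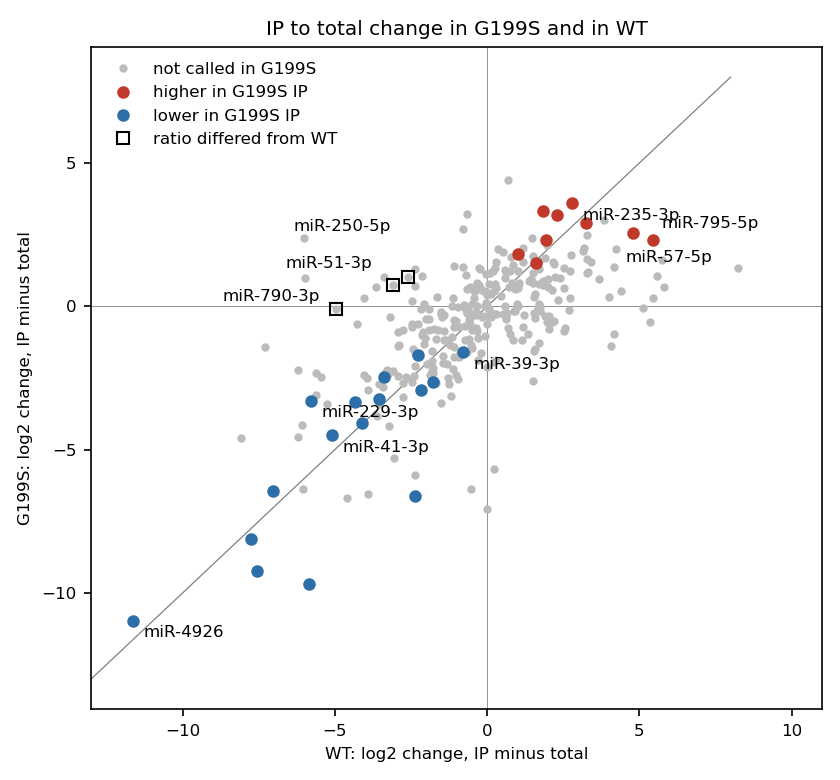
Log2 change from total RNA to ALG-1 IP in WT (horizontal) and G199S (vertical) for 315 miRNAs; red and blue circles are the 9 higher and 16 lower in G199S, squares the 3 whose change differed between the genotypes, and the grey line marks equal change. The squares, miR-790-3p, miR-51-3p and miR-250-5p, lie far left in WT and near or above 0 in G199S.

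The direct test of the G199S change against the WT change called 3 miRNAs of 315 (0.952%), all relatively higher in the G199S IP. All 3 were passenger strands, as were 122 of the 315 tested, and 3 calls are too few to tell a share. miR-790-3p stood at 24.4 and 28.5 RPM in IP and 28.3 and 39.2 RPM in total RNA of G199S, and at 0.169 and 0.161 RPM in IP and 7.91 and 7.99 RPM in total RNA of WT. In WT the IP was nearly empty of it, while in G199S the fractions overlapped. The log2 change was -0.10 in G199S and -4.95 in WT, a difference of 4.85 ± 1.04 (SE, adjusted p = 0.0272). miR-51-3p stood at 134 and 80.8 RPM in IP and 83.4 and 65.4 RPM in total RNA of G199S, and at 1.77 and 0.484 RPM in IP and 12.2 and 14.6 RPM in total RNA of WT. Its fractions did not overlap in WT and overlapped in part in G199S, and the difference was 3.85 ± 0.92 (SE, adjusted p = 0.0459). miR-250-5p stood at 210.1 and 167 RPM in IP and 125 and 90.5 RPM in total RNA of G199S, and at 12 and 12.3 RPM in IP and 149.8 and 80 RPM in total RNA of WT. Its IP was above total RNA in G199S and below it in WT, without overlap in either, and the difference was 3.65 ± 0.76 (SE, adjusted p = 0.0272). In WT all 3 were below total RNA by the same test, and in G199S none passed either way. Their hairpins lie on chromosome IV (mir-790, 5566422 to 5566491, plus strand, and mir-51, 11026013 to 11026112, minus strand) and chromosome V (mir-250, 11769917 to 11770015, minus strand), outside protein-coding genes. Leaving out 1 of the 8 libraries left 0 calls, except 2 without WT total library 2, and 27 passed with only these 8 in the fit.

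Against null, 23 of 315 changes differed (7.30%; 16 higher and 7 lower in G199S). Of the 12 named by size, 6 had 0 reads in both null IP libraries, and their fitted differences depend on the added prior and are no bound. miR-87-5p stood at 36.6 and 19.4 RPM in IP and 21.2 and 10.8 RPM in total RNA of G199S, and at 0 and 0 RPM in IP and 16.6 and 7.24 RPM in total RNA of null. miR-360-3p stood at 26.4 and 18.5 RPM in IP and 2.33 and 3.36 RPM in total RNA of G199S, and at 0 and 0 RPM in IP and 4.58 and 3.39 RPM in total RNA of null. miR-55-5p stood at 6.12 and 10.9 RPM in IP and 56.5 and 44.3 RPM in total RNA of G199S, and at 0 and 0 RPM in IP and 61.6 and 105 RPM in total RNA of null. In G199S total RNA miR-360-3p had 19 and 33 reads beside 6 and 7 of miR-360-5p, so its name as passenger comes from the other genotypes. miR-87-5p, miR-360-3p and miR-55-5p, all named passengers, were read in G199S IP and not in null IP. Among those relatively lower in G199S IP was the let-7 family guide miR-84-5p. It stood at 9262 and 7812 RPM in IP and 5707 and 10482 RPM in total RNA of G199S. In null it stood at 46948 and 31015 RPM in IP and 3829 and 924 RPM in total RNA. The difference was -4.70 ± 1.25 (SE, adjusted p = 0.0262). It rose in null IP and its G199S fractions overlapped. The largest difference in that direction, -7.97, was that of miR-358-5p, a named passenger, so named passengers lay on both sides. Leaving out 1 library gave 8 (null IP library 1), 86 (null IP library 2) and 45 (null total library 1) calls, and 10 to 14 for each of the other 5 libraries. With only the 8 libraries compared in the fit none passed. Against F180del the count was 0 of 315 (0%) by edgeR and by DESeq2, with 4 miRNAs at an unadjusted p under 0.05 in edgeR. The smallest adjusted p was 1.00, which does not show that the alleles act alike.

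Passenger to guide ratios were followed for the 95 hairpins with a mean of at least 10 passenger reads. In G199S the passenger rose relative to its guide from total RNA to IP in 6 hairpins and fell in 10 (16.8%; 6.32% and 10.5%; limma on log2 ratios, Benjamini-Hochberg). In WT the corresponding counts were 9 and 28 (38.9%; 9.47% and 29.5%), in null 13 and 40 (55.8%; 13.7% and 42.1%) and in F180del 9 and 6 (15.8%; 9.47% and 6.32%). The median log2 change of the ratio was -0.07 in G199S, -0.06 in F180del, -1.13 in WT and -1.77 in null. In G199S 45 of the 95 ratios were above 0 and 50 below.

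As percent of the guide, the passenger of mir-42 stood at 3.12% and 2.2% in IP and 0.0205% and 0.147% in total RNA. Every IP value exceeded every total value, with miR-42-5p higher and miR-42-3p lower in IP, and the log2 change of the ratio was 5.56 ± 0.85 (SE, adjusted p = 0.000499). The ratio also rose in WT, by 4.54, and in the null background, by 5.80. In mir-58a it stood at 23.6% and 4.99% in IP and 2.19% and 0.35% in total RNA. The libraries of each fraction differed several-fold, and the change was 3.63 ± 1.13 (SE, adjusted p = 0.0321), with 2.14 in WT, which did not pass, and 3.39 in null, which did. It was 2.31 without total library 2, 2.51 without IP library 1, 4.96 without total library 1 and 4.76 without IP library 2. mir-229 and mir-250 changed their leading arm between fractions. In mir-229 the arm called passenger, miR-229-5p, stood at 468% and 482% in IP and 28.9% and 54.4% in total RNA relative to miR-229-3p, a change of 3.58 ± 0.91 (SE, adjusted p = 0.0124). In WT the same hairpin gave 651% and 1018% in IP and 2.94% and 3.11% in total RNA, so the arm switch was also present there, and in null the ratio rose by 5.12. In mir-250 the values were 496% and 163% in IP and 45.3% and 13.6% in total RNA. The change was 3.51 ± 1.06 (SE, adjusted p = 0.03), beside 0.34 in WT and 2.53 in null, neither past the threshold. In F180del the ratio rose by 3.23 in mir-250, 4.00 in mir-58a and 3.25 in mir-42, all past the threshold. In mir-229 it rose there by 1.88, which did not pass. The guides of mir-360 and mir-8210 were at or near 0 in IP, so reads are given: miR-360-5p had 0 and 1 reads in IP beside 302 and 129 of miR-360-3p. In total RNA miR-360-5p had 6 and 7 reads beside 19 and 33, so miR-360-3p led there too. In IP, miR-8210-3p had 0 and 0 beside 22 and 10 of miR-8210-5p.

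The ratio fell in hairpins of well-known guides. As percent of the guide, the passenger of mir-235 stood at 0.0196% and 0.0252% in IP and 0.822% and 0.69% in total RNA, a log2 change of -5.07 ± 1.04 (SE, adjusted p = 0.00467). In mir-61 it was 0.103% and 0.131% in IP and 1.49% and 1.92% in total RNA, a change of -3.85 ± 0.66 (SE, adjusted p = 0.000918). In both, all IP values were below all total values. In mir-84 it was 0.0755% and 0.0899% in IP and 1.2% and 0.547% in total RNA, a change of -3.29 ± 0.90 (SE, adjusted p = 0.0186). The ratios of these 3 hairpins fell in WT and null as well, by the same test. In lin-4, the founding heterochronic miRNA, the passenger had 1 and 0 reads in IP and 7 and 27 in total RNA, with an adjusted p of 0.03. The mir-238 passenger had 0 and 0 reads in IP and 7 and 18 in total RNA (adjusted p 0.0258). The others were mir-82, with a change of -3.22 ± 1.08 (SE, adjusted p = 0.0495), and mir-240, mir-230, mir-54 and mir-90, outside the naming rule. The count of 16 fell to 2 without IP library 1 and to 7 without total library 2.

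**Figure D4:**
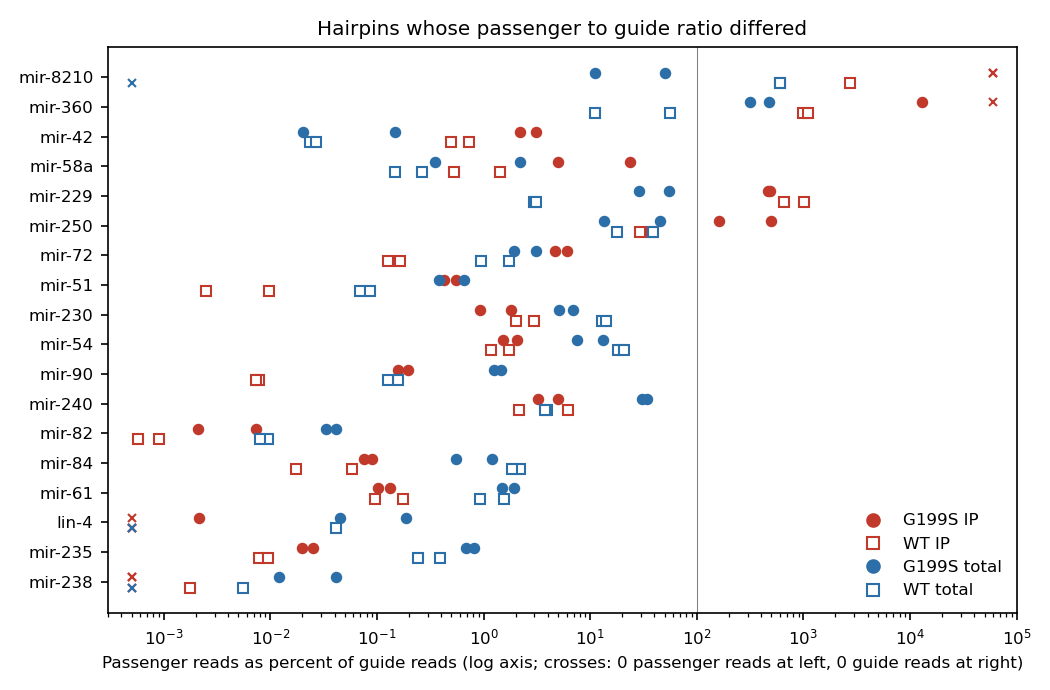
Passenger reads as percent of guide reads on a log axis for the 18 hairpins whose ratio differed between IP and total RNA in G199S or whose change differed from WT; filled circles are G199S, open squares WT, red IP and blue total RNA, 1 symbol a library, with crosses for 0 passenger reads (left) or 0 guide reads (right). In mir-72 and mir-51 the WT IP squares lie left of the WT total squares, while the G199S circles of both fractions lie close together.

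The change of the ratio differed between G199S and WT in 2 of 95 hairpins (2.11%), mir-72 and mir-51, both with relatively more passenger in the G199S IP. Between G199S and F180del it differed in 0 of 95. In mir-72 the passenger was 6.05% and 4.68% in IP and 3.09% and 1.92% in total RNA in G199S, and 0.128% and 0.166% in IP and 1.72% and 0.955% in total RNA in WT. It was above total RNA in both G199S IP libraries and below in both WT IP libraries, and the difference of log2 changes was 4.26 ± 0.94 (SE, adjusted p = 0.0275). In mir-51 it was 0.548% and 0.429% in IP and 0.381% and 0.654% in total RNA in G199S, and 0.00968% and 0.00247% in IP and 0.0698% and 0.0858% in total RNA in WT. Its G199S fractions overlapped, its WT fractions did not, and the difference was 3.87 ± 0.95 (SE, adjusted p = 0.0393). Leaving out 1 library left 0 to 2 of these calls, and 0 in 6 of 8 cases.

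Summed over the 186 hairpins with both arms named, passengers took 1.90% and 1.76% of reads in G199S IP (1.83% ± 0.0995, SD, n = 2) and 1.36% and 1.21% in total RNA (1.29% ± 0.101). Both IP values exceeded both total values, a ratio of 1.43. An exact permutation test of 2 libraries against 2 gave a two-sided p of 0.33, the smallest it allows. The same ratio was 2.10 in F180del, 0.783 in V254I, 0.563 in WT, 0.386 in null and 0.338 in H751L. miR-58a-5p supplied 27.0% of passenger reads in IP and 10.1% in total RNA, and miR-44-5p 13.2% and 6.46%, whereas miR-80-5p supplied 13.8% and 26.9%. miR-58a-5p stood at 5815 and 3677 RPM in IP and 2141 and 583 RPM in total RNA, a log2 change of 2.02 ± 0.63 (SE, adjusted p = 0.0531). Without it the ratio was 1.18, an alternative added after the data were seen.

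**Figure D5:**
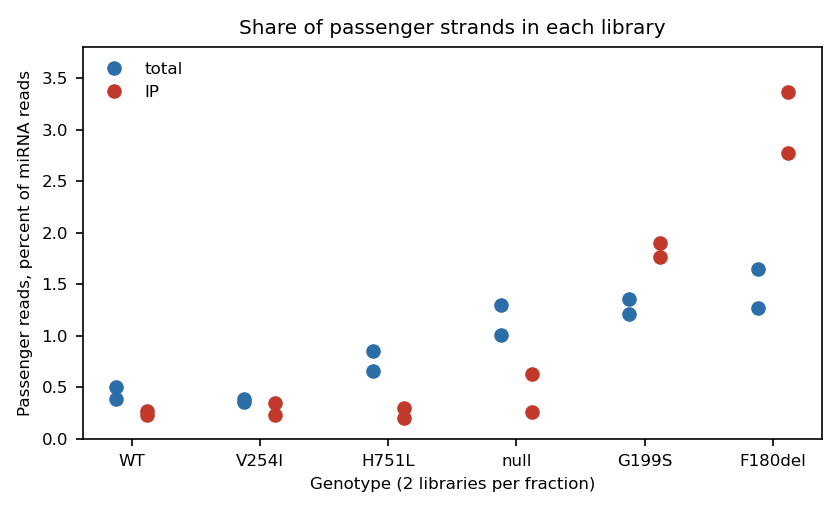
Passenger reads as percent of all miRNA reads in each of the 24 libraries, by genotype; red is ALG-1 IP, blue total RNA, 1 point a library and no error bars. In G199S (1.76% and 1.90% against 1.21% and 1.36%) and F180del the IP points lie above the total points, and in WT, V254I, H751L and null they lie below.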

How the data were processed

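Whole-animal small RNA was sequenced from total lysate and from ALG-1 precipitates (12 groups, 24 libraries). The authors deposited whole-number read counts per mature miRNA and precursor, and RPM values that equal these counts scaled to library totals within 1 RPM in 100% of cells. Per the submitters' processing notes, the tools behind the files were Bowtie 1.2.2, cutadapt, DESeq2 and FastQC 0.11.8, whose roles the notes omit. The build, the annotation of miRNAs and the treatment of multiply matching reads are details not given in the sources used here. Of 450 rows, 13 repeats of a mature name under another precursor were dropped, keeping the row with the most reads. A set of 48 per-sample columns that match no label was not used.

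Counts of all 24 libraries were fitted in R 4.3.3 by the quasi-likelihood F-test of edgeR 4.0.16 after filterByExpr and TMM scaling, and 122 of 437 names were filtered out as too low. Contrasts were IP minus total within a genotype and differences of these between genotypes. SE is the size of the log2 change divided by the square root of F. Passenger to guide ratios, log2 of counts plus 0.5, were fitted with limma 3.58.1 (trend). The guide is the arm with more reads in the 10 total libraries that are not G199S. P-values were adjusted by Benjamini-Hochberg across every feature tested, with a threshold of 0.05. The scripts were tested on simulated data. Loci come from the Ensembl annotation of WBcel235, which matched 192 of 193 precursors. Binomial intervals and floors cover counting error only, since PCR reads are not independent molecules.

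The text names at most 10 miRNAs in each direction, ranked by log2 change, among calls with both IP libraries beyond both total libraries and at least 10 RPM in the higher group. The 5 most read per fraction and called list members were added, as were up to 6 in each direction per difference between genotypes and per hairpin comparison. The members, lists and tests were chosen with earlier results of these data known. Alternatives were other scalings, no filter, DESeq2 1.42.0, fewer libraries, a replicate block and left-out libraries. Sequences of miRNAs were not used here.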

Additional observations from a re-analysis of the deposited data

Results flagged for a closer look

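Differences between genotypes in the change from total RNA to IP were followed up where their own test passed. Against WT, the differences were 4.85 for miR-790-3p, 3.85 for miR-51-3p and 3.65 for miR-250-5p on the log2 scale, all relatively higher in G199S IP. For the passenger to guide ratio they were 4.26 for mir-72 and 3.87 for mir-51.

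Against null, 6 named miRNAs were relatively higher in G199S IP and had 0 reads in both null IP libraries: miR-360-3p (11.08), miR-87-5p (10.45), miR-55-5p (9.96), miR-8200-3p (9.87), miR-392-5p (9.49) and miR-790-3p (9.04). These fitted values depend on the added prior and are no bound. miR-8200-3p had 3 reads in G199S IP and 2 in G199S total, while null total RNA held 13.6 and 7.55 RPM. miR-392-5p had 28 and 4 reads in the same G199S fractions.

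Relatively lower in G199S IP were miR-358-5p (-7.97), miR-4936 (-6.57), miR-1820-5p (-5.31), miR-1829c-5p (-4.85), miR-84-5p (-4.70) and miR-797-5p (-3.59). miR-358-5p, a named passenger, was unread in both null total libraries, so its value too depends on the prior. miR-1820-5p stood at 213 and 257 RPM in IP and 112 and 480.2 RPM in total RNA of G199S and at 450.2 and 397 RPM in IP and 25.2 and 19.4 RPM in total RNA of null. miR-797-5p stood at 148 and 92.2 RPM in IP and 30.6 and 60.5 RPM in total RNA of G199S and at 203 and 132 RPM in IP and 14.4 and 3.24 RPM in total RNA of null. Its G199S IP libraries lay above the total libraries without passing.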

How the results depend on the processing

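The 25 miRNAs called between IP and total RNA became 57 with DESeq2 (19 higher, 38 lower), 89 with only the G199S libraries in the fit (40 and 49), 58 without the null libraries, 32 with no filter (17 and 15), and 2 to 13 with 1 library left out. RLE factors gave 27, all precursor rows 27 and library totals 30. All 25 kept their sign under each of these (not counted for all precursor rows), except that miR-786-5p was not tested with only the G199S libraries. The 3 differences from WT became 7 with RLE factors (4 and 3), 9 with no filter (4 and 5), 15 with DESeq2 (10 and 5), 27 with only the compared groups (11 and 16), 9 without the null libraries (6 and 3), and 0 to 2 with 1 library left out. The 23 differences from null became 50 with library totals (45 and 5), 49 with DESeq2, 0 with only the compared groups (edgeR), and 8 to 86 with 1 library left out. The difference from F180del stayed at 0 in each. Hairpin calls, 16 within G199S, became 33 with only the compared groups and 2 to 13 with 1 library left out, and kept the count of 16 with guides set from the 12 IP libraries (3 and 13). That choice swaps the arms of mir-360 (-5.96) and mir-229 (-3.58) by construction. The 2 hairpins against WT became 6 with only the compared groups and 0 to 2 with 1 library left out. Same-numbered IP and total libraries of G199S deviated together (r = 0.375), while other genotypes gave -0.07 to 0.22. The labels state no pairing, so numbers were not treated as pairs, though the G199S libraries may be paired. The replicate block gave 17 miRNAs, with 14 of the 25 kept and 11 lost. It gave 0 against WT, 6 against null, 15 hairpins and 0 hairpins against WT. The passenger share in IP was 1.71% with IP guides and 1.41% (total 0.785%) over hairpins whose arms differ at least 10 times, with IP to total ratios of 1.25 and 1.80, and 1.18 without miR-58a-5p. Leaving out a library gave ratios of 1.35 to 1.51. Where no cause is stated, the cause was not tested. Of 383 values of named miRNAs in G199S under these settings, 89 lost the call and 4 gained it with the same sign. The remaining 290 were counted as unchanged, including any value not called in the main fit that changed sign, whether it then passed or not. None of the miRNAs called in the main fit changed sign, and changes of sign in the others were not counted. Having 2 libraries a group and counts near the floor of 3 reads limit what low miRNAs can show.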

Other observations

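With the null libraries left out of the fit, 33 further miRNAs passed in G199S, 14 higher and 19 lower in IP. Of these, 6 and 6 were passenger strands, beside 122 of the 315 tested in the main fit. Higher passengers included miR-58a-5p (log2 change 2.02, edgeR adjusted p 0.0211), miR-79-5p (1.72), miR-77-5p (1.41) and miR-233-5p (2.03). Higher guides included miR-75-5p (1.32), miR-786-3p (1.76), from the hairpin beside mir-240, miR-230-3p (1.93), miR-252-5p (2.04), miR-54-3p (1.66), miR-56-3p (1.22) and miR-64-5p (1.57). Lower passengers included miR-238-5p (-6.45), miR-255-5p (-4.20), miR-4816-5p (-2.70) and miR-65-3p (-2.65). Lower guides included miR-43-3p (-2.32) and miR-250-3p (-2.42) of the miR-2 family and miR-255-3p (-2.24). This fit was chosen after the data were seen, and these miRNAs were named after their values were seen.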
